A study of Rattus norvegicus with 8 samples.

Results

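The genes described here carry glucose into the cell, break it down to pyruvate and move lactate across the plasma membrane: the glucose transporter Slc2a1, the hexokinases Hk1 and Hk2, the glycolytic enzymes Pfkl, Aldoa, Pgk1 and Eno1, the lactate dehydrogenase subunit Ldha and the monocarboxylate transporters Slc16a1 and Slc16a3. They were taken as all probe sets annotated to 1 of these 10 symbols and to no other. A probe set is the group of short probes that yields 1 signal value on the array. Of 8799 probe sets, 16 met this rule and covered 9 of the 10 genes. The 1 probe set that names Ldha also names another symbol, so Ldha has no value here. The array's 3 hexokinase control features, annotated to Hk1, are given beside the hexokinases and were not counted among the 16.

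Primary smooth muscle cells had been grown from explants of pulmonary arteries of adult Sprague-Dawley rats after the endothelium and adventitia were stripped. They were left untreated or exposed for 1, 2 or 4 h to GSNO (S-nitrosoglutathione), which releases nitric oxide. Each of the 4 groups had 2 arrays, numbered 1 and 2. The GSNO concentration is 100 μmol/L in the series design and 100 mmol/L in the samples' treatment protocol, and neither was taken as settled. The untreated group has no stated time, so time in culture and GSNO cannot be told apart. The design mentions 2 independent cell preparations without tying them to the array numbers. If they are not tied, p-values measure only the spread between arrays.

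Hexokinases trap glucose in the cell by phosphorylating it, which is the entry step of glycolysis. Hk1 is the form found in most tissues, while Hk2 is the inducible form of muscle and fat. Pfkl is the liver-type subunit of phosphofructokinase, the main control point of the pathway, and Aldoa, Pgk1 and Eno1 catalyse steps below it. Pyruvate that is not oxidised in mitochondria is turned into lactate by lactate dehydrogenase. Lactate crosses the membrane through Slc16a1 (also called MCT1) and Slc16a3 (MCT4), the second being typical of cells that export much lactate. Many of these genes are known targets of hypoxia-inducible factor.

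The median signal per array lay between 99.7 and 140.5 and the 99th percentile between 9381 and 16023. The arrays numbered 1 and 2 in the sample titles were scanned on different days and with different fluidics protocols, per the file headers. This difference is called the array number below. Of the arrays numbered 1, control and 2 h belong to recorded experiment 1 of the headers, and 1 h and 4 h to experiment 2. All arrays numbered 2 belong to experiment 3. On arrays numbered 1, differences of 1 h or 4 h from control, and of 1 h or 4 h from 2 h, thus also cross recorded experiments. A block on the array number does not take this out. Smooth muscle markers were present: 7 of the 8 on the array exceeded the array's 40th percentile of signal on both control arrays, among them Acta2, Tagln, Myh11 and Cnn1, while desmin (Des) had only 24.6 and 23.0. Of the endothelial markers on the array 3 of 7 exceeded it, Edn1, Flt1 and Nos3, and Pecam1, Vwf, Kdr and Sele did not. Their summed signal was 753 to 856 at 4 h and 1961 to 2774 in control, most of the difference being endothelin-1 (Edn1), with 243 and 67.7 at 4 h and 1866 and 1056 in control (log2 fold change -3.22, limma adjusted p = 0.0218). Edn1 was also lower at 2 h (-3.81, adjusted p = 0.0132), and at 1 h with a block on the array number (-2.94, adjusted p = 0.00296). All 6 fibroblast and adventitial genes measured, collagens among them, exceeded the 40th percentile, with sums of 55539 to 56385 at 4 h and 65974 to 66524 in control. Of these, decorin (Dcn) fell at 4 h in X59859_i_at, with 16.04 and 18.5 at 4 h against 170.4 and 199.9 in control (log2 fold change -2.42, adjusted p = 0.0452), and its other tested probe set, Z12298cds_s_at, gave -0.35. At 1 h that Dcn probe set read 16.1 and 25.9 and passed with a block on the array number (adjusted p = 0.0172), while at 2 h it read 158 and 372. The smooth muscle myosin gene Myh11 was lower at 4 h in X16262_s_at with this block (-0.60, adjusted p = 0.0434, and 0.612 without it). The 40th percentile was also exceeded on both control arrays by 3 of 6 macrophage and leukocyte genes and 5 of 8 skeletal and cardiac muscle genes. So it was by 1 of 5 lung epithelial and 1 of 2 erythroid genes. The part that other cell types had in the results below was not tested. In RNA from whole cultures, fewer cells of a type and less RNA per cell cannot be told apart.

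Calls made without a block on the array number were in 3 genes, Hk2, Slc16a1 and Slc16a3. Hk2 was higher at all 3 times by 1 of its 2 probe sets, and the lactate transporters Slc16a1 and Slc16a3 were higher at 4 h. No probe set of Slc2a1, Hk1, Pfkl, Aldoa, Pgk1 or Eno1 passed the threshold against control at any time without the array-number block. The 4 h log2 fold changes of Slc2a1, 1.78 and 1.58, were nevertheless of the size of that of Slc16a3, 1.63. Signals were tested as log2 of signal plus an offset of 21.1 with limma over 5877 probe sets, with a threshold of 0.05 on the adjusted p. A second fit, the block, takes the difference between array numbers out of the error and leaves the fold changes as they are. One of the 16 member probe sets, of Pgk1, stayed below the filter on low signal, which left 15.

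At 1 h, 1 of the 15 member probe sets rose, against 0.493% of all probe sets tested. At 2 h, 1 of 15 rose, against 0.783%. At 4 h, 4 of 15 rose, against 0.953%, and none passed the threshold as lower. With the block the counts were 1, 3 and 7, where 1.14%, 2.19% and 4.25% of all tested probe sets rose. Both GSNO arrays exceeded both control arrays in 4, 5 and 10 of the 15 at 1, 2 and 4 h, against 10.1%, 12.9% and 13.4% of all. Hk2 D26393exon_s_at is in each of these counts and is the only member called at 1 h and 2 h without the block. It passed the filter only through the exposed cells, so these counts hold a member favoured by the filter. The median log2 fold change of the 15 was 0.08, 0.18 and 0.62, and that of all tested probe sets was -0.05, -0.06 and -0.16. These are descriptions, as the genes were picked with earlier results of these arrays known.

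**Figure D1:**
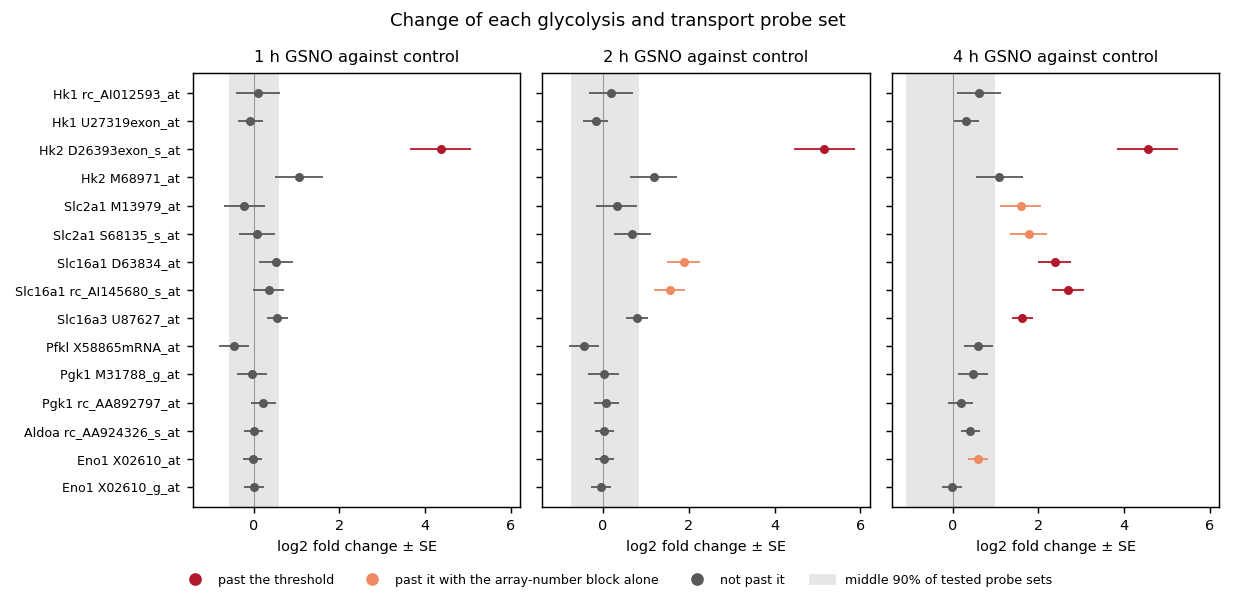
Log2 fold change against control (horizontal axis, log2 units, bars are the standard error of the limma fit) of the 15 tested probe sets at 1, 2 and 4 h of GSNO. Dark red marks those past the threshold, orange those past it with the array-number block alone, and the grey band holds the middle 90% of all 5877 probe sets. The Hk2 exon probe set lies furthest right at each time, and Slc16a1 and Slc16a3 also pass at 4 h.

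Among the hexokinases, the Hk2 probe set D26393exon_s_at showed the largest difference of any member. Its signal was 65.1 and 10.03 in control (arrays 1 and 2), 1055 and 1040 at 1 h, 1349 and 2488 at 2 h, and 560 and 2529 at 4 h. All 6 GSNO arrays were far above both control arrays, which lay under the 40th percentile of their arrays, so this probe set passed the filter only through the exposed cells. The log2 fold change was 4.37 ± 0.71 (SE) at 1 h (limma adjusted p = 0.0489), 5.16 ± 0.71 at 2 h (adjusted p = 0.0144) and 4.55 ± 0.71 at 4 h (adjusted p = 0.0214). Because control was so dim, the size depends on the offset: at 1 h it was 5.28 with an offset of 1 and 3.51 with an offset of 64, and neither of these passed (adjusted p = 0.0652 and 0.0768).

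At 1 h the arrays numbered 1 gave 3.64 and those numbered 2 gave 5.09. No other array shared the chip lot of 1 h array 1, and the part of chip lot in this result was not tested. At 4 h the same values were 2.75 and 6.36. Hk2 lost its 4 h call without control array 2 (adjusted p = 0.122) or 4 h array 2 (adjusted p = 0.0658). Its 2 h call was lost without control array 2 (adjusted p = 0.0936), 2 h array 1 (adjusted p = 0.0783) or 2 h array 2 (adjusted p = 0.0874). The 1 h call held only when a 4 h array was the one left out (adjusted p = 0.0164 and 0.0167), and leaving out any other array gave 0.0799 to 0.344.

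The other Hk2 probe set, M68971_at, ran in the same direction with a smaller size. It read 375 and 489 in control, 974 and 858 at 1 h, 672 and 1473 at 2 h, and 511 and 1699.8 at 4 h. Every GSNO array exceeded both controls, though at 4 h array 1 did so by little. Its log2 fold changes were 1.06, 1.18 and 1.09 at the 3 times and did not pass, with or without the block (adjusted p = 0.119 at 4 h with it). On arrays numbered 1 both Hk2 probe sets were lower at 4 h than at 2 h, while on arrays numbered 2 they were level or slightly higher (log2 differences of 0.02 and 0.20). The fit found no call between 4 h and 2 h for either (log2 differences of -0.61 and -0.09).

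Hk1 did not pass at any time. Probe set rc_AI012593_at had 854 and 1403 in control, 901 and 1551 at 1 h, 815 and 1886 at 2 h, and 1171 and 2442 at 4 h. The arrays numbered 2 were higher in each group, and at 4 h the groups overlapped although each array was above the control of its own number. The log2 fold change at 4 h was 0.62 ± 0.51 (SE; adjusted p = 0.717, and 0.0823 with the block). U27319exon_at read 547 and 864 at 4 h against 626 and 478 in control, and its log2 fold change of 0.32 did not pass.

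The 3 hexokinase control features carry probes from the 5' part, the middle and the 3' part of a transcript, going by their names. The middle one, AFFX_Rat_Hexokinase_M_at, had 151 and 459 in control, 191 and 436 at 1 h, 139.6 and 787 at 2 h, and 376 and 1527 at 4 h. Each 4 h array was above the control of its number, and the difference between the numbers exceeded that between most groups. In a fit that kept control features, its log2 fold change at 4 h was 1.45 ± 0.91 (SE; adjusted p = 0.629), and it passed with the block (adjusted p = 0.0143). The 3' feature read 262 and 760 at 4 h against 237 and 362 in control, and the 5' feature 209 and 474 at 4 h against 172 and 223 in control. Neither passed, with log2 fold changes of 0.58 and 0.64. All 3 gave smaller changes than the Hk2 exon probe set, and all 3 gave larger 4 h changes between the arrays numbered 2 than between those numbered 1, as Hk1 rc_AI012593_at did.

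**Figure D2:**
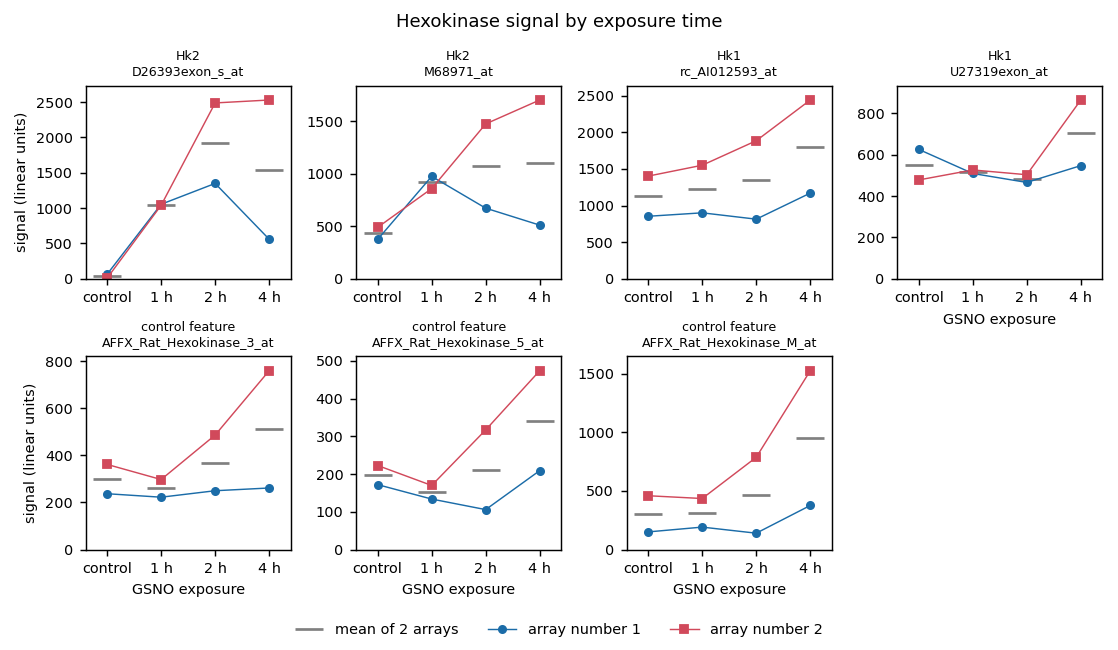
Signal (vertical axis, linear units) of the hexokinase probe sets and control features in control cells and after 1, 2 and 4 h of GSNO. Circles joined by a line are arrays numbered 1, squares arrays numbered 2, and the bar is the mean of the 2 arrays. The Hk2 exon probe set leaves a control signal of 65.1 and 10.03 for values over 1000 at 1 h, and for Hk1 rc_AI012593_at and the control features the array numbered 2 is the higher in each group.

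Slc2a1, which encodes the basal glucose transporter GLUT1, overlapped control at 1 h and 2 h and stood above control at 4 h on every array by both probe sets. S68135_s_at had 584 and 378 in control, 664 and 374 at 1 h, 1044 and 559 at 2 h, and 1304 and 2113 at 4 h. M13979_at had 339 and 216 in control, 326 and 161 at 1 h, 457 and 254 at 2 h, and 595 and 1223 at 4 h. In both, array 1 was the higher of its group until 2 h and the lower at 4 h.

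At 4 h the log2 fold changes were 1.78 ± 0.43 and 1.58 ± 0.48 (SE), short of the threshold without the block (limma adjusted p = 0.0993 and 0.2) and past it with the block (adjusted p = 0.0101 and 0.0431). With the recorded experiment of the file headers as block instead, S68135_s_at passed and M13979_at did not (adjusted p = 0.0424 and 0.102). Here and below, that block leaves 2 residual degrees of freedom and joins control to 4 h only through the arrays numbered 2. Unlike the array-number block it can change the fold changes, as for the Hk2 exon probe set at 4 h (5.23 against 4.55). Its adjusted p therefore does not belong to the fold changes printed. Between the arrays numbered 1 the 4 h log2 fold changes of Slc2a1 were 1.13 and 0.78, and between those numbered 2 they were 2.42 and 2.39. With the block, both probe sets were also higher at 4 h than at 1 h (log2 differences of 1.69 and 1.80, adjusted p = 0.0185 and 0.0344; 0.186 and 0.207 without it).

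The lactate transporters Slc16a1 and Slc16a3 rose at 4 h. Slc16a1 was measured by 2 probe sets, and rc_AI145680_s_at read 315 and 460 in control, 382 and 635 at 1 h, 995 and 1345 at 2 h, and 2017 and 3283 at 4 h. Both 2 h arrays exceeded both 1 h arrays and both 4 h arrays exceeded both 2 h arrays. At 4 h the log2 fold change was 2.69 ± 0.36 (SE; adjusted p = 0.0106), with 2.60 and 2.78 between the arrays numbered 1 and 2. At 2 h it was 1.55, which passed with the block (adjusted p = 9.14e-04) and not without (adjusted p = 0.143). The call at 4 h was lost without control array 1 (adjusted p = 0.113) or 4 h array 2 (adjusted p = 0.0658).

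The other Slc16a1 probe set, D63834_at, had 101 and 103 in control, 180 and 133 at 1 h, 476 and 392 at 2 h, and 411 and 929 at 4 h. All GSNO arrays were above both controls. Its log2 fold change was 1.88 ± 0.39 (SE) at 2 h (adjusted p = 0.0928, and 0.0167 with the block) and 2.38 ± 0.39 at 4 h (adjusted p = 0.0268). Between 2 h and 4 h it was lower at 4 h on the array numbered 1 and higher on that numbered 2 (log2 differences of -0.20 and 1.20), which the other probe set did not do (1.00 and 1.27). Its 4 h call was lost without control array 1 or 2 (adjusted p = 0.171 and 0.136), 1 h array 1 (adjusted p = 0.05004) or 4 h array 2 (adjusted p = 0.0856).

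Slc16a3, read by U87627_at alone, had 217 and 253 in control, 381 and 329 at 1 h, 433 and 408 at 2 h, and 692 and 852 at 4 h. The GSNO arrays exceeded the controls at each time, and the 4 groups did not overlap. Log2 fold changes were 0.55 at 1 h and 0.79 at 2 h, neither past the threshold, and 1.63 ± 0.25 (SE) at 4 h (adjusted p = 0.0209). The arrays numbered 1 and 2 gave 1.58 and 1.67 at 4 h, so this was the member whose 4 h change differed least between them among those called. It passed at 4 h when any 1 of the 1 h or 2 h arrays was left out, and missed without control array 1 or 2 (adjusted p = 0.165 and 0.0886) or without 4 h array 1 or 2 (adjusted p = 0.0538 and 0.0973). In a fit of the 4 h and control arrays alone, Slc16a3 missed (adjusted p = 0.0795), as did Hk2 D26393exon_s_at (0.0614) and Slc16a1 D63834_at (0.0777), and Slc16a1 rc_AI145680_s_at passed (0.0305).

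**Figure D3:**
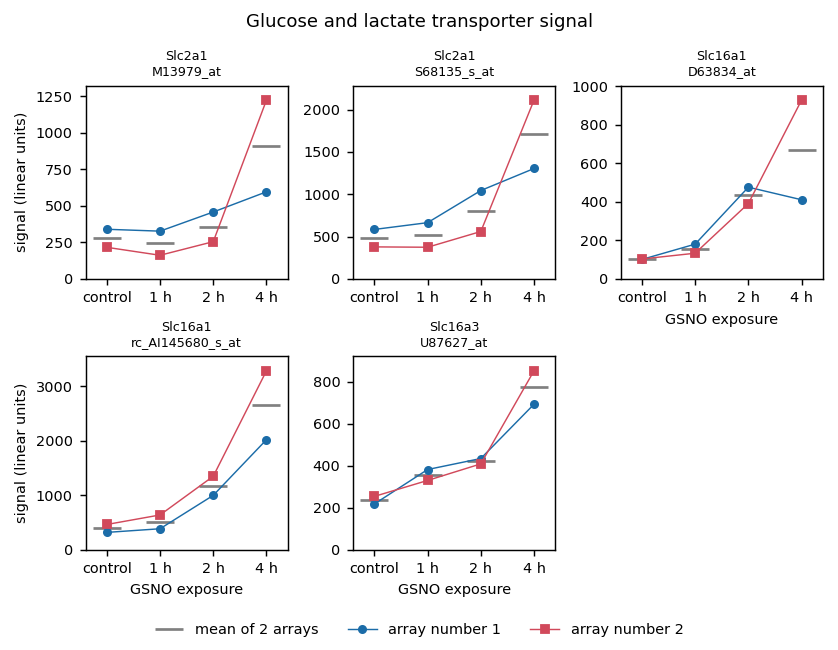
Signal (vertical axis, linear units) of the glucose transporter Slc2a1 and the lactate transporters Slc16a1 and Slc16a3 by exposure time. Circles are arrays numbered 1, squares arrays numbered 2, and the bar is the mean of the 2 arrays. Slc16a3 and Slc16a1 rc_AI145680_s_at climb alike on both numbers, and in Slc2a1 the numbers change places at 4 h.

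The windows around the annotated start sites of Hk2 and the 3 transporter genes are shown because these had the largest log2 fold changes among the members at 4 h. Each runs from 250 bases before the start to 50 after it, is taken from RefSeq (build GRCr8) and reads 5′ to 3′ along the gene. Capitals mark ACGTG or GCGTG on either strand, the core of the element that hypoxia-inducible factor binds. The palindrome CACGTG, an E-box, contains ACGTG on both strands.
Hk2, chr4:116841226-116841525, minus strand: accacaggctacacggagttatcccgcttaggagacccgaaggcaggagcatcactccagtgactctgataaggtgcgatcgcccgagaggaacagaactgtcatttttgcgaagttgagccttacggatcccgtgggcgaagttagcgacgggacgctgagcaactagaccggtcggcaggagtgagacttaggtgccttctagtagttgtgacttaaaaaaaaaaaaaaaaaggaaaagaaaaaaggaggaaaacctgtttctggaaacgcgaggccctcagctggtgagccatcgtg
Slc2a1, chr5:138002272-138002571, plus strand: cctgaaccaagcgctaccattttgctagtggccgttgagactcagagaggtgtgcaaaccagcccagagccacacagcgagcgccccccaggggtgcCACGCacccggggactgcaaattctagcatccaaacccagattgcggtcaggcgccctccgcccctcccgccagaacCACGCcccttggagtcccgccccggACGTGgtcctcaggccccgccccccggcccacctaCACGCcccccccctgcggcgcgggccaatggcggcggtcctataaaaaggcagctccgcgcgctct
Slc16a1, chr2:194812410-194812709, plus strand: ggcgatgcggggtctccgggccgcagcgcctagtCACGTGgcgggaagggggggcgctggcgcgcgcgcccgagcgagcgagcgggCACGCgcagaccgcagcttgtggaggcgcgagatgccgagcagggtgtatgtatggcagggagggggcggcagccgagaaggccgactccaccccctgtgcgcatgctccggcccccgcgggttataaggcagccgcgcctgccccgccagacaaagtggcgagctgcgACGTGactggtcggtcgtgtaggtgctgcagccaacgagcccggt
Slc16a3, chr10:106712078-106712377, plus strand: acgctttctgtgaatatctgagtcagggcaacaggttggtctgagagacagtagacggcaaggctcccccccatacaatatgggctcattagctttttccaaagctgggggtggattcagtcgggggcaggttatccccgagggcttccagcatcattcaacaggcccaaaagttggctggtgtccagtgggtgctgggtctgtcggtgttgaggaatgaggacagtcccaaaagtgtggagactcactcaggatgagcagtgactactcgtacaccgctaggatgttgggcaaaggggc
Slc2a1 held 1 match to ACGTG and 3 to GCGTG. Slc16a1 held 3 to ACGTG, of which 2 share 1 CACGTG, and 1 to GCGTG. The Hk2 and Slc16a3 windows held neither. Of 33469 promoter windows of this length, 41.6% contained at least 1 of the 2 letter strings. A full cAMP element, TGACGTCA, was in none of the 4 windows and in 1.83% of all. Among members not shown, Hk1, Ldha, Pfkl, Aldoa and Eno1 each had at least 1 window with ACGTG or GCGTG. Hk1, Aldoa and Eno1 have more than 1 window each, and Hk1 and Aldoa also had at least 1 window with neither. The 41.6% counts single windows and is not a share per gene. The Ldha window also held 1 TGACGTCA. These are letter matches and not binding sites, and which start site the cells used was not determined. The Slc16a1 window lies within the annotated span of the gene, which begins at 194805556, while those of Hk2, Slc2a1 and Slc16a3 lie at the gene's 5′ end.

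Of the enzymes downstream of hexokinase, Pfkl was lower at 1 h and 2 h on both arrays and higher at 4 h: it had 658 and 663 in control, 413 and 553 at 1 h, 370 and 625 at 2 h, and 786 and 1306 at 4 h. None of its differences from control passed (log2 fold changes of -0.45, -0.44 and 0.60, adjusted p = 0.596 at 4 h). With the block, 4 h was above 1 h (log2 difference 1.05, adjusted p = 0.0277).

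Aldoa, the muscle-type aldolase, had 4558 and 5491 in control, 4842 and 5172 at 1 h, 4850 and 5349 at 2 h, and 6518 and 6789 at 4 h. The 4 h arrays lay above all others, and the log2 fold change of 0.41 ± 0.23 (SE) did not pass (adjusted p = 0.572, and 0.137 with the block). Eno1, which encodes alpha-enolase, gave a similar picture in X02610_at, with 7567 and 7793 at 4 h against 4507 and 5728 in control. This log2 fold change of 0.59 ± 0.23 passed with the block (adjusted p = 0.0429) and not without (adjusted p = 0.361), nor with the recorded experiment as block (adjusted p = 0.297).

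The other Eno1 probe set, X02610_g_at, which is named for the same source sequence, showed no such difference: 7547 and 7562 at 4 h against 7279 and 7948 in control (log2 fold change -0.01 ± 0.23). The 2 Eno1 probe sets therefore disagree at 4 h. Pgk1, which encodes phosphoglycerate kinase, was read by 3 probe sets. M31788_g_at had 2096 and 3691 at 4 h against 1626 and 2466 in control, with overlapping groups and a log2 fold change of 0.47 that did not pass. For rc_AA892797_at, signals were 3624 and 5197 at 4 h and 3673 and 3967 in control, and the log2 fold change was 0.18. The dim probe set M31788_at stayed between 10.02 and 29.6 on all 8 arrays and was not tested.

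**Figure D4:**
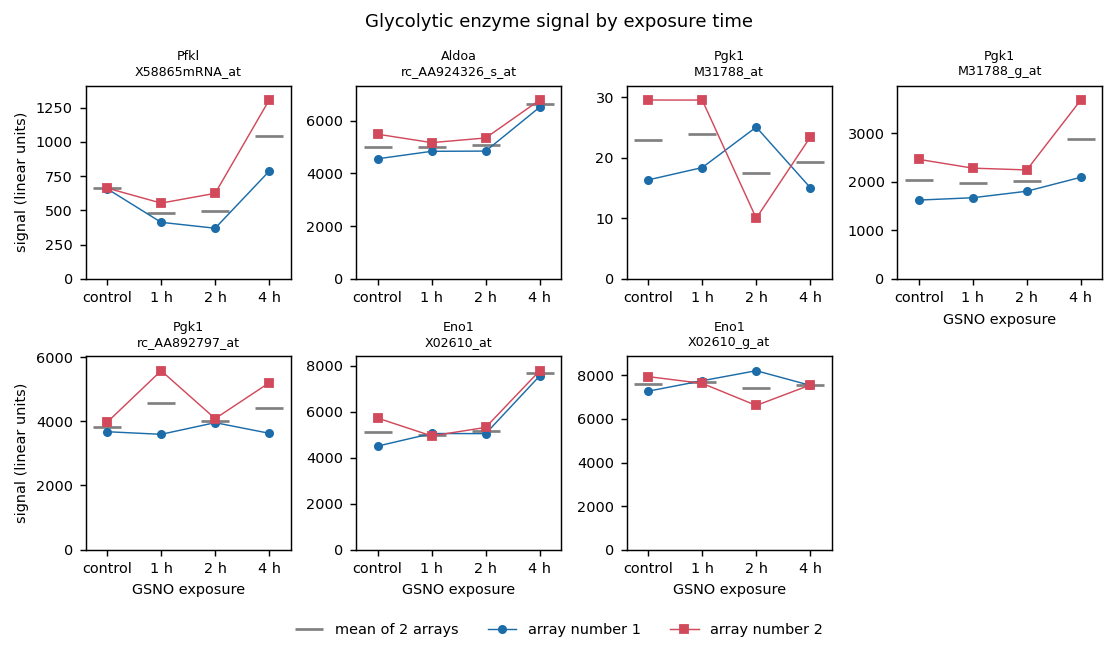
Signal (vertical axis, linear units, from 0) of Pfkl, Aldoa, Pgk1 and Eno1 probe sets in control cells and after 1, 2 and 4 h of GSNO. Circles are arrays numbered 1, squares arrays numbered 2, bars the mean of the 2 arrays. Aldoa and Eno1 X02610_at are highest at 4 h on both numbers, while Eno1 X02610_g_at is flat and Pgk1 M31788_at lies near the bottom of the array's range.

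Comparing the exposure times, 1 of the 15 member probe sets, Slc16a1 rc_AI145680_s_at, was higher at 4 h than at 1 h (log2 difference 2.34 ± 0.36 (SE), adjusted p = 0.0417), against 0.204% of all tested. That call was lost when any of the 8 arrays was left out (adjusted p of 0.0644 to 0.253). With the block 7 of 15 were higher, against 2.65%: both probe sets of Slc2a1 and of Slc16a1, with Slc16a3, Pfkl and Eno1 X02610_at. With the recorded experiment as block, 3 of these 7 passed: both Slc16a1 probe sets and Slc2a1 S68135_s_at. Hk2 was not among them (log2 differences of 0.19 and 0.03), and its exon probe set was already at 1055 and 1040 at 1 h. Between 4 h and 2 h limma called 0 probe sets, 0% of all, with 330 at an unadjusted p under 0.05. With the block, Slc16a1 rc_AI145680_s_at was higher at 4 h (1.14, adjusted p = 0.0325, and 0.194 with the recorded experiment as block), where 0.204% of all were higher. Between 2 h and 1 h it called 0, again 0% of all, with 164 at an unadjusted p under 0.05, and 2 with the block, neither of them a member.

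At 4 h the change was larger between the arrays numbered 2 than between those numbered 1 for 12 of the 15 member probe sets, and for 59.9% of all tested. The medians of the 15 were 0.96 for arrays numbered 2 and 0.51 for those numbered 1. Those of all tested probe sets were -0.08 and -0.22. At 1 h and 2 h the change was larger between the arrays numbered 2 for 6 and 5 of the 15, and for 54.1% and 49.1% of all. The control and 4 h arrays numbered 1 came from different recorded experiments, and the part of this was not tested.

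Of the other listed genes of glucose transport, glycolysis, pyruvate oxidation and glucose synthesis, 37 were on the array and 27 passed the filter, with 45 probe sets. None passed the threshold in either direction at 1, 2 or 4 h, with or without the block, and their median at 4 h was -0.07. The highest at 4 h were Pc, which encodes pyruvate carboxylase (U32314_g_at, 1.25, adjusted p = 0.564), and the phosphoglycerate mutase gene Pgam1 (rc_AI169417_s_at, 0.63, adjusted p = 0.544). Pc U32314_g_at was dim, with 92.1 and 100.9 at 4 h against 21.1 and 36.3 in control, and passed the filter only through the exposed cells. The other Pc probe set gave 0.29, and the others of Pgam1 gave 0.40 and 0.41. Next highest was Pkm (0.61, adjusted p = 0.366, and 0.0509 with the block). The lowest were Pdk4, a kinase that switches off pyruvate dehydrogenase (-1.87, adjusted p = 0.55), and the aldolase gene Aldoc (-0.63, adjusted p = 0.73). Next lowest was Pdha1 rc_AA799598_at (-0.58, adjusted p = 0.631), while its other probe set gave 0.06. For Pdk4 the 4 h signals were 4.91 and 6.64, against 17.4 and 228 in control, the control array numbered 2 being far above the other 3.

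**Figure D5:**
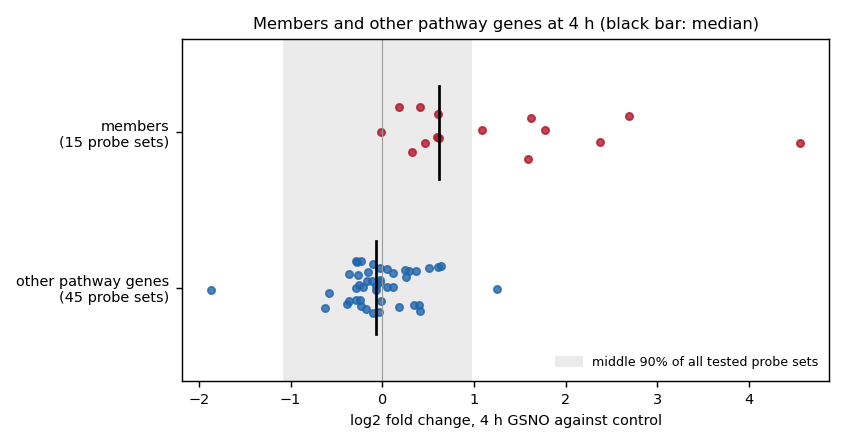
Log2 fold change at 4 h against control (horizontal axis, log2 units) of the 15 member probe sets (upper row) and of 45 probe sets of other pathway genes (lower row), spread vertically for legibility. Black bars are medians, 0.62 above and -0.07 below, and the grey band is the middle 90% of all tested probe sets. Members reach further right, with Hk2 at 4.55, and these members were chosen with such values known.

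Of the listed regulators and hypoxia genes, 11 passed the filter. Crem, which encodes repressors and activators that act at cAMP response elements, rose at all 3 times, and S66024_g_at had 5811 and 5189 at 4 h against 278 and 240 in control. No other gene of this list passed the threshold without the block. Hif1a, a subunit of hypoxia-inducible factor, had 241 and 319 at 4 h and 250 and 314 in control, and its log2 fold changes were 0.04, -0.05 and -0.01 at the 3 times. With the block, Myc, a transcription factor that can drive glycolytic genes, fell at 1 h in both probe sets (-3.72 and -2.05, adjusted p = 0.0162 and 0.0079). Vegfa, a hypoxia-responsive growth factor gene, passed as higher with the block at 2 h in 1 of its 4 probe sets (rc_AA850734_at, 1.51, adjusted p = 0.03). The others gave 1.63, 1.45 and 1.21 at 2 h and did not pass (adjusted p of 0.121 to 0.198 with the block).

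Over the 8 arrays, the log2 signal of the Hk2 exon probe set was most like that of Ier3 (Pearson r = 0.984), Crem (0.955) and Klf4 (0.95), among 4826 non-member probe sets with 1 symbol. Slc16a3 was most like Cd55 (0.953), Crabp2 (0.946) and Gclm (0.944). Slc16a1 rc_AI145680_s_at was most like Ptprn (0.996), Add3 (0.986) and Por (0.982), and Slc16a1 D63834_at most like Nktr (0.986), Sec61a1 (0.982) and Il6 (0.977). The arrays share treatment and array number, and the best of many candidates is high by selection, so these values only describe the pattern.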

How the data were processed

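Per the series design, RNA was labelled, hybridised to rat Affymetrix arrays and analysed by the authors with the maker's GeneChip 5.0 software. The deposited intensity values are 1 linear signal per probe set and array, with trimmed means of 499.98 to 499.99, and were used without rescaling. They hold no detection calls. The array number is from the sample titles. The scan records (other text, per the file headers) gave scan day, fluidics protocol, chip lot and recorded experiment.

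Signals were tested as log2(signal + 21.1), the offset being the median 20th percentile of the arrays, which understates changes of dim genes. Probe sets reaching the 40th percentile on at least 2 arrays were kept (5877), without the 59 control features. limma 3.58.1 (R 4.3.3) fitted all 4 groups with 4 residual degrees of freedom and an expression trend. P-values are two-sided and Benjamini-Hochberg adjusted over all kept probe sets. The precision is limited by 2 arrays a group. The fit was tested on simulated data.

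Deviations of same-numbered arrays correlated at 0.387 to 0.569 in all 6 pairs of groups, above 0.1, so the array number pairs the arrays, and a fit with it as a replicate block is given beside results it changes. Symbols came from GEO's platform annotation (7018 probe sets with 1 symbol, 308 with several, 1473 with none). All 10 genes were looked up by symbol in the RefSeq promoter table (GRCr8), and 9 were found. Members, lists and tests were chosen with earlier results of these data known. Named are all members, pathway, regulator and marker genes past the threshold with or without the block, the 3 highest and 3 lowest pathway genes at 4 h, and for members called at 4 h the 3 most alike genes.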

Additional observations from a re-analysis of the deposited data

Results flagged for a closer look

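The tests between exposure times singled out 8 member differences that passed in at least 1 of the fits without and with the array-number block. Between 4 h and 1 h of GSNO these were log2 differences of 2.34 and 1.86 for the 2 Slc16a1 probe sets, 1.80 and 1.69 for those of Slc2a1, 1.07 for Slc16a3, 1.05 for Pfkl and 0.62 for Eno1 X02610_at. Between 4 h and 2 h it was 1.14 for Slc16a1 rc_AI145680_s_at. The first alone passed without the block. Of all tested probe sets, 2.65% were higher for 4 h over 1 h and 0.204% for 4 h over 2 h with the block. Without it the shares were 0.204% and 0%. With the block the adjusted p ran from 1.95e-04 for Slc16a1 rc_AI145680_s_at to 0.0489 for Eno1 X02610_at. Groups of 2 arrays are too small to look for single outlying arrays.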

How the results depend on the processing

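Counts of called probe sets depended on how the array number was treated. With the replicate block, 79, 186 and 466 probe sets were called at 1, 2 and 4 h, against 31, 57 and 90 without it, and 300, 32 and 2 for 4 h over 1 h, 4 h over 2 h and 2 h over 1 h, against 28, 0 and 0. Called members numbered 3 at 2 h and 7 at 4 h with the block, 7 for 4 h over 1 h and 1 for 4 h over 2 h, and the block changed no member call at 1 h. The recorded experiment as block gave 152 and 165 at 2 and 4 h, with 3 members at 2 h and 5 at 4 h, 201 for 4 h over 1 h with 3 members, and 1 for 4 h over 2 h. With only the 2 groups compared, 37 were called at 2 h and 0 for 4 h over 1 h, with 1 member at 4 h (Slc16a1 rc_AI145680_s_at) and 0 for 4 h over 1 h. With no variance trend 4 were called for 4 h over 1 h, with 0 members, and the member call at 1 h went to 0. That call also went to 0 with either other offset and with control features kept. Asking for the 40th percentile on all 8 arrays removed the Hk2 exon probe set, left 0 members at 1 and 2 h, and gave 19 calls at 1 h and 1 for 2 h over 1 h. Quantile normalization gave 1 for 2 h over 1 h.

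Leaving out 1 array gave 5 to 27, 19 to 52 and 32 to 87 calls at 1, 2 and 4 h, with 0 to 1, 0 to 2 and 0 to 4 members. It gave 0 to 23 calls for 4 h over 1 h, with 0 members, and 0 to 1 for 4 h over 2 h. The 2 members at 2 h, without either 4 h array, were Hk2 D26393exon_s_at and Slc16a1 D63834_at. Without the 4 h array numbered 2 no member was called at 4 h, and without either control array 1 was. Scaling to a common median moved the median of all probe sets at 4 h to 0.04 and the calls to 82 higher and 21 lower, against 56 and 34. The 4 member calls stayed, and the member median became 0.83. No called member value changed sign under any alternative run. Among member values without a call, 76 of 1555 recomputed ones changed sign, none with a log2 fold change over 0.61. No detection calls limit what can be said of dim probe sets.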

Other observations

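Aldoa and Eno1 stayed close to control until 2 h. At 1 h, Aldoa rc_AA924326_s_at and the 2 Eno1 probe sets gave log2 fold changes of 0.00, -0.02 and 0.02, with standard errors of 0.23. At 2 h the same probe sets gave 0.03, 0.03 and -0.04.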
